A study of Mus musculus with 18 samples.

Results

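Tight junctions seal the space between neighbouring epithelial cells, and claudins are the membrane proteins that set which ions and how much water may pass there. Some claudins tighten the seal and others form pores. Occludin is a further membrane protein of the same junction, and Tjp1, a zonula occludens protein, is the scaffold that ties the strands to actin. In the distal colon a tight seal keeps absorbed sodium from leaking back into the lumen.

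The transcripts described here are 8 claudins (Cldn8, Cldn2, Cldn3, Cldn4, Cldn7, Cldn12, Cldn15 and Cldn23), occludin (Ocln) and Tjp1. Members were all probe sets of the expression array whose annotated symbol is exactly one of these 10 names, which gave 16 probe sets of the 45101 in the table. All 16 passed the filter on dim probe sets, so all 10 genes were among the 12870 genes tested. Each gene was represented by its probe set with the highest mean, and Cldn3 had 4 probe sets, Cldn2, Cldn12 and Ocln had 2 each, and the other 6 genes had 1 each.

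Tissue was mouse distal colon, taken about 0.5 cm above the anus, and RNA was hybridised to Affymetrix whole-genome mouse arrays. Mice had lived for 2 weeks under 12 h of light (from 7 to 19 on the clock) and 12 h of dark, with food freely available, and the labels give no strain, sex, age, genotype or treatment. The groups are 8am, 12pm, 4pm, 8pm, 12am and 4am, which lie 1, 5, 9, 13, 17 and 21 h after lights on. Each time has 3 arrays, named a, b and c, 18 in all. Whether a, b and c are separate mice is not stated, so p-values measure the spread between arrays, which may be in part technical. The tissue is a mixture, in which fewer cells of a type and less RNA per cell cannot be told apart.

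4 arrays stood apart in RNA quality. The Gapdh control is measured near both ends of its transcript, and its 3′ over 5′ signal grows as RNA breaks or copying stops early. This ratio was 34.3 on 4pm b, 2.33 on 4pm c, 36.0 on 4am a and 18.2 on 4am b, against 0.746 to 1.12 on the other 14 arrays. The same ratio of Actb was 4.99, 1.80, 55.4 and 16.6 on those 4 arrays and 1.14 to 1.29 on the rest. Calls of the members that are given here and involve 4pm or 4am are therefore shown with all arrays and without 4pm b, 4am a and 4am b. Not every such call is given. That second fit keeps 1 array at 4am, which is assumed to vary like the other groups. The colon label was checked with 14 markers of the surface epithelium, all of them on the array, whose summed signal ranged over 107104 to 222304. Of 11 markers of squamous epithelium 5 passed the filter, Krt5 and Krt14 among them, with a summed signal of 773 to 2240. The part of these cells in the results was not tested.

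The 10 transcripts were tested in limma on log2(signal + 16), with Benjamini-Hochberg adjustment over all genes. Cldn8, Cldn23, Cldn3 and Cldn7 differed between the 6 times, with adjusted p of 0.0099, 0.0193, 0.0352 and 0.0461. Those are 4 of 10 members, where 17% of all genes tested passed the same test. With every probe set tested alone 4 of the 16 passed, against 12.9% of probe sets. They were those of Cldn8 and Cldn23, and 1460569_x_at and 1434651_a_at of Cldn3. The Cldn3 probe sets 1451701_x_at (adjusted p of 0.0611) and 1426332_a_at (0.0727) and that of Cldn7 (0.0543) did not pass. The calls of Cldn3 and Cldn7 were lost in 17 and 23 of 31 other settings, which include leaving out each array in turn, and those of Cldn8 and Cldn23 in none. With a 24 h curve none of the 10 passed and 1 (Cldn8) reached an unadjusted p under 0.05, against 0.0389% (5 genes) of all genes called and 3.95% under 0.05 unadjusted. Light minus dark called no member and no gene at all (0%), although 799 genes had an unadjusted p under 0.05. None of the members was among those, and their light minus dark differences ran from -0.20 (Cldn12) to 0.67 (Cldn4).

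Without the 3 arrays of highest Gapdh ratio the members that differed between times were Cldn8, Cldn23, Ocln and Cldn7, with adjusted p of 0.0077, 0.0097, 0.0156 and 0.0450 and a background of 22.9% of genes called. Cldn3 no longer passed, at an adjusted p of 0.334. Leaving out 4pm c as well added Cldn15 at an adjusted p of 0.0212, for 5 of 10 members against 20.6% of genes.

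**Figure D1:**
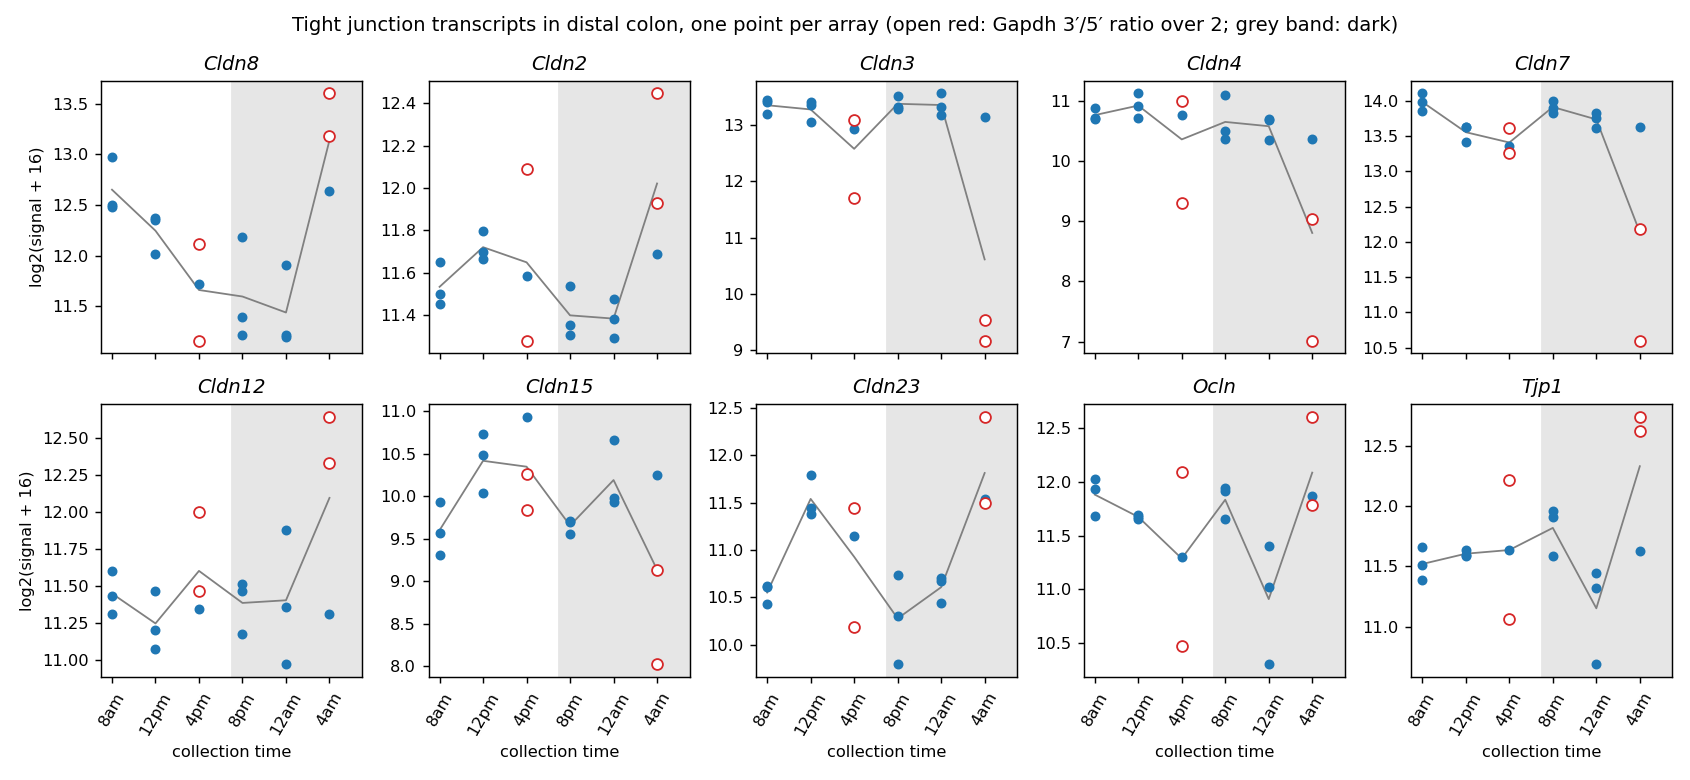
Signal of the 10 transcripts at the 6 collection times, as log2(signal + 16) on an axis of its own for each gene, with one point per array and a line through the means of 3 arrays. Open red points are the 4 arrays with a Gapdh 3′/5′ ratio over 2. Those at 4am lie below all other arrays for Cldn3, Cldn4, Cldn7 and Cldn15. The grey band is the dark phase.

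Cldn8 encodes a sealing claudin that is abundant in distal colon and distal nephron, and its loss lets sodium leak back between cells. Its signal was 5786, 8015 and 5683 at 8am. It was 5199, 5267 and 4132 at 12pm, and 3343, 4402 and 2265 at 4pm. In the dark the 8pm arrays gave 2665, 2366 and 4619, the 12am arrays gave 2331, 2358 and 3810, and the 4am arrays gave 9255, 12408 and 6349. All arrays of 4am and 8am lay above all arrays of 4pm, 8pm and 12am, and 12pm lay between with some overlap. On the log2 scale the means were 12.65 ± 0.28, 12.24 ± 0.20, 11.66 ± 0.48, 11.60 ± 0.51, 11.44 ± 0.40 and 13.14 ± 0.48 from 8am to 4am (SD, n = 3 each). The order from high to low was 4am, 8am, 12pm, 4pm, 8pm and 12am, in which no pair of neighbours was called.

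Of the 15 pairs of times, 3 were called for Cldn8, each adjusted over all genes by limma. At 4am Cldn8 was 1.70 ± 0.31 (SE) log2 units above 12am, 3.25-fold, with an adjusted p of 0.0077 and 33.3% of genes called in that pair. It was 1.54 ± 0.31 above 8pm at 4am, with an adjusted p of 0.0106 and 11.8% called. The third pair does not use the arrays of high Gapdh ratio: at 12am Cldn8 was lower than at 8am by a log2 difference of -1.21 ± 0.31 (2.32-fold), with an adjusted p of 0.0215 and 10.4% of genes called. Without the 3 arrays that difference had an adjusted p of 0.0035 (26.8% called), and 4pm minus 8am was called too, at -1.22 ± 0.28 (adjusted p of 0.0113, 15.2% called). That last call rests on 4pm c, since the adjusted p was 0.0738 with all arrays and 0.144 (difference of -0.94) without the 4 arrays. Neither 4am pair was called without the 3 arrays: 4am minus 12am was 1.20 ± 0.35 (adjusted p of 0.154, 0.117% of genes called) and 4am minus 8pm was 1.04 ± 0.35 (0.139).

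Cldn8 was higher at 8am than at 8pm and higher at 12pm than at 12am, but lower at 4pm than at 4am. The 3 differences between times 12 h apart were 1.06 ± 0.31, 0.81 ± 0.31 and -1.48 ± 0.31, and in each pair the arrays of the 2 times did not overlap. None passed over all genes, with adjusted p of 0.625, 0.538 and 0.0973. At most 6 genes (0.0466%) passed in any of these 3 comparisons, with 0.0078% for 8am minus 8pm and 0% for 12pm minus 12am. The difference between the first and the last of these contrasts, 4pm minus 4am less 8am minus 8pm, was -2.53 ± 0.44 with an adjusted p of 0.0270. It was among 12 genes called (0.0932%). Against 12pm minus 12am the same difference was -2.29 ± 0.44, with an adjusted p of 0.0966 (0.0155% of genes called). Because 2 of the 4am arrays have a high ratio and are also the highest for Cldn8, the values without them matter here. 4am c alone, at 6349, was still above every array of 4pm, 8pm and 12am, and 4pm minus 4am was -1.20 without the 3 arrays (adjusted p of 0.526, 0.0078% of genes called).

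The 24 h curve of Cldn8 has an amplitude of 0.76 ± 0.16 (SE) log2 units and an unadjusted p of 4.02e-04, but an adjusted p of 0.369. With all arrays this curve peaked 0.0125 h after lights on. Its peak moved to 0.78 h after lights on without the 3 arrays, with an amplitude of 0.64 and an adjusted p of 0.152. It moved to 1.29 h, with an amplitude of 0.60, when 4pm c was left out too. Under the same test 4 of 9 circadian reference genes (Dbp, Tef, Nr1d2 and Cry1) were called. Arntl, the partner of Clock, peaked at 23.1 h with an adjusted p of 0.0532.

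**Figure D2:**
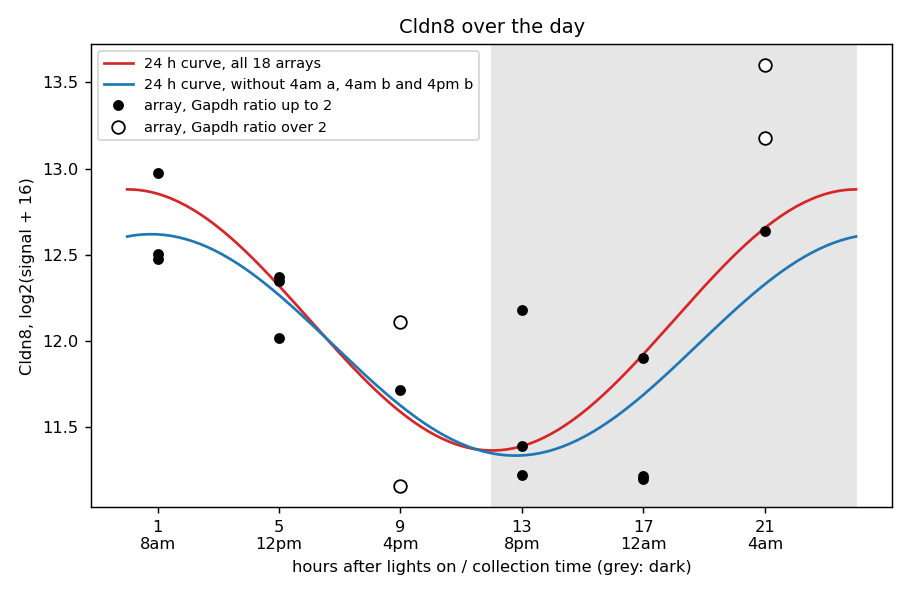
Cldn8 as log2(signal + 16) in each of the 18 arrays against hours after lights on, with 24 h curves fitted to all arrays and without 4pm b, 4am a and 4am b. Open points are the 4 arrays with a Gapdh ratio over 2, and the amplitude falls to 0.64 in the second curve, against 0.76 in the first.

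The 5 genes whose signal followed Cldn8 most closely were Ddc, Efr3a, Mansc1, Galnt4 and Clock. Pearson's r over the 18 arrays was 0.89 for Ddc, which encodes aromatic amino acid decarboxylase, and 0.85 for Clock, a core activator of the circadian clock. Over the 14 arrays of low Gapdh ratio the values were 0.87 for Ddc, 0.79 for Efr3a, 0.74 for Mansc1, 0.81 for Galnt4 and 0.82 for Clock. These arrays share collection times and scaling, so the values are a description only.

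Cldn23 encodes a claudin of differentiated surface colonocytes. Its signal was 1364, 1554 and 1547 at 8am, and 2767, 3528 and 2659 at 12pm. It was 2260.0, 2768 and 1153 at 4pm. In the dark the 8pm arrays gave 1249, 872 and 1689.8, the 12am arrays gave 1371, 1657 and 1623, and the 4am arrays gave 5415, 2873 and 2951. All arrays of 12pm and 4am lay above all arrays of 8am, 8pm and 12am, whereas the 3 arrays of 4pm spread over both ranges. The lowest of them was 4pm c.

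The mean log2 signal of Cldn23 was 11.54 ± 0.22 at 12pm, and at 4am it was 11.81 ± 0.51 (SD, n = 3 each). The other times lay between 10.28 and 10.93. With all arrays the 3 pairs called were 4am minus 8am, 1.26 ± 0.32 (adjusted p of 0.0236, 12.1% of genes called), 4am minus 8pm, 1.53 ± 0.32 (0.0118, 11.8%), and 4am minus 12am, 1.20 ± 0.32 (0.0148, 33.3%). None of these was called without the 3 arrays, where the differences were 0.98, 1.26 and 0.93 with adjusted p of 0.155, 0.0698 and 0.233. The high values at 12pm come from arrays of low Gapdh ratio. Without the 3 arrays, 12pm minus 8am was 0.99 ± 0.24 (adjusted p of 0.0187, 9.71% of genes called) and 8pm minus 12pm was -1.26 ± 0.24 (0.0058, 8.38%). The 12pm minus 12am difference of 0.93 had an adjusted p of 0.523 with all arrays and of 0.0440 without the 4 arrays, where 0.718% of genes were called. The 24 h curve of Cldn23 had an amplitude of 0.39 ± 0.20 and an adjusted p of 0.948.

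Occludin steadies the junction strand and is needed for its regulated opening. Ocln signal was 3267, 4167 and 3896 at 8am, 3283, 3218 and 3257 at 12pm, and 2503, 4347 and 1404 at 4pm. In the dark the 8pm arrays gave 3913, 3200.2 and 3834, the 12am arrays gave 1247, 2067 and 2688, and the 4am arrays gave 6221, 3506 and 3726. All 12am arrays lay below all arrays of 8am, 12pm, 8pm and 4am. The 12am mean was 10.91 ± 0.56 on the log2 scale, and the 8pm mean was 11.83 ± 0.16.

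At 12am Ocln was below 8am by a log2 difference of -0.97 ± 0.34 with all arrays (adjusted p of 0.0769). Without the 3 arrays the same difference had an SE of 0.24 and an adjusted p of 0.0087, and 12am minus 8pm was -0.92 with an adjusted p of 0.0149 (20.4% of genes called). The other Ocln probe set, 1440220_at, gave 1019, 1082 and 872 at 12am and 987, 1126 and 1094 at 8pm. Those ranges overlap, although its mean was also lowest at 12am (9.97, against 10.08 to 10.64 at the other times).

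Tjp1 had its lowest mean at 12am too. It was 1632, 2773 and 2549 at 12am, and 3842, 3964 and 3069 at 8pm. The 12am arrays were all below the 8pm arrays. The 12am minus 8pm difference was -0.67 ± 0.30 with an adjusted p of 0.207 (4.84% of genes called), and without the 3 arrays it kept its value with an adjusted p of 0.0249. Tjp1 signal was 6853 on 4am a and 6297 on 4am b, against 3158 on 4am c. With all arrays limma called 4am minus 12am for Ocln (1.18, adjusted p of 0.0198), Tjp1 (1.18, 0.0141) and Cldn2 (0.64, 0.0354), against 33.3% of genes. Cldn4 (-1.77, 0.0291) and Cldn7 (-1.60, 0.0175) were called in that pair too. Without the 3 arrays these differences were 0.96, 0.48, 0.30, -0.21 and -0.11. Cldn4 and Cldn7 were also called with all arrays for 4am against 8am and 8pm, and Cldn4 against 12pm.

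For 12pm against 12am, all 12pm arrays lay above all 12am arrays for 6 of 10 members, Cldn8, Cldn2, Cldn4, Cldn23, Ocln and Tjp1, where this held for 11% of genes tested. No member showed the opposite, which 10.3% of genes did. The 12pm minus 12am differences of those 6 ran from 0.34 (Cldn2, Cldn4) to 0.93 (Cldn23), and none was called over all genes with all arrays. All 8am arrays lay above all 8pm arrays for Cldn8 alone (5.63% of genes), and below for no member (8.46%). All 4pm arrays lay below all 4am arrays for Cldn8 and Cldn23 (2.27%), and above for no member (5.57%).

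Cldn3, Cldn4 and Cldn7 are sealing claudins of gut epithelium, and Cldn15 forms a cation pore that supplies sodium to the gut lumen in mice. All 4 transcripts were lower on 4am a and 4am b than on every other array, and on 4pm b Cldn3 and Cldn4 were low too. The fall was largest for Cldn3, while Cldn15 on 4am b, at 546, was close to its 615 on 8am b. The Cldn3 probe set 1426332_a_at gave 15.03 on 4am a and 12.3 on 4am b, against 7496 on 4am c. At 4pm it gave 44.8 on 4pm b and 2652 on 4pm c, against 5816 on 4pm a. Over the 14 arrays of low ratio its range was 5816 to 9146.

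The other 3 Cldn3 probe sets fell less far. 1460569_x_at, which stands for the gene, gave 555 on 4am a, 724 on 4am b and 3341 on 4pm b, and 8690 (8689.93) on 4pm c, against 7838 to 12112 on the 14 arrays. On 4am a and 4am b the probe sets kept between 0.164% (1426332_a_at on 4am b) and 9.78% (1434651_a_at on 4am b) of the signal of 4am c, the lowest of these shares resting on signals far under the filter signal of 121. On log2 values averaged over the 2 arrays, the representative probe set differed from 4am c by -3.80, and 0.583% of genes tested were as low or lower.

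Cldn4 gave 113 on 4am a and 508 on 4am b, against 1310 (1309.53) on 4am c, and at 4pm it gave 619 on 4pm b and 2028 on 4pm c, against 1730.2 on 4pm a. Cldn7 gave 1530 (1529.99) and 4650 (4649.96) on those 2 arrays, against 12594 on 4am c, and Cldn15 gave 244 and 546 against 1198. At 4pm Cldn7 gave 9765 on 4pm b and 12535 on 4pm c, against 10436 on 4pm a, and Cldn15 gave 1211 and 902 against 1939.97, so these 2 transcripts did not fall as far there. The second probe set of Cldn2, 1417232_at, gave 182 and 119 against 1346. Other members ran the other way on the same arrays. Cldn12 was 5141 and 6392 against 2522, and Cldn8, Tjp1 and the first Cldn2 probe set were higher on both arrays than on 4am c. Over all genes tested the median of this within-time difference was -0.13, with 5% of genes below -2.19 and 5% above 1.15. As low as or lower than Cldn4, Cldn7 and Cldn15 were 3.96%, 4.76% and 9.22% of genes.

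**Figure D3:**
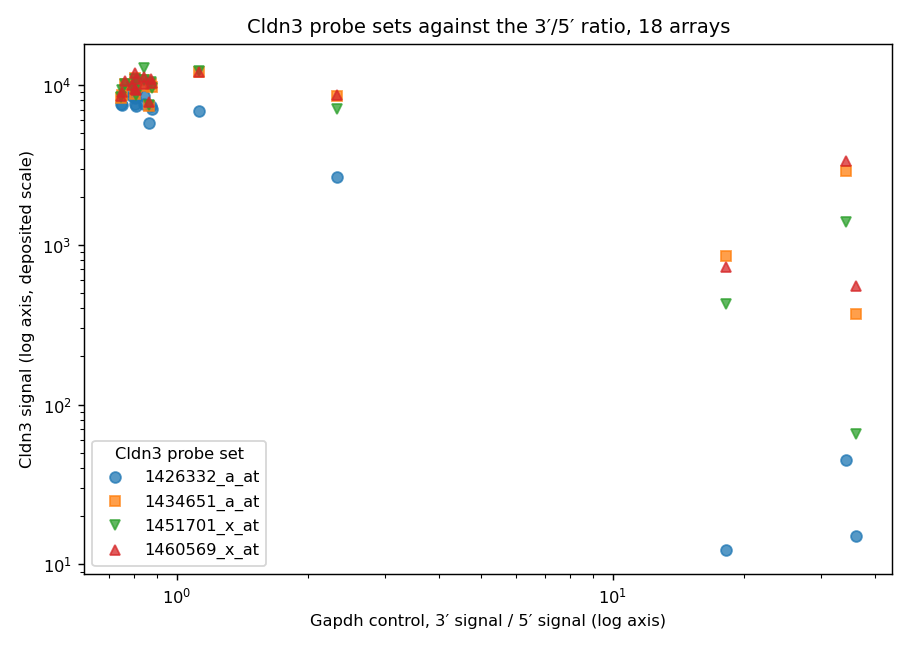
Signal of the 4 Cldn3 probe sets on the 18 arrays (log axis) against the 3′/5′ signal ratio of the Gapdh control (log axis). The 3 arrays with ratios of 18.2 to 36.0 lie at 12.3 to 3341, and the 14 arrays with ratios up to 1.12 reach down to 5816.

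At the 4 times without an array of high ratio the Cldn3 means lay close together. Its mean log2 signal was 13.36 ± 0.13 at 8am, 13.28 ± 0.19 at 12pm, 13.38 ± 0.13 at 8pm and 13.36 ± 0.19 at 12am (n = 3 each). The 8am minus 8pm difference was -0.03 and the 12pm minus 12am difference was -0.08, and without the 3 arrays their adjusted p were 0.999 and 0.800 (0.14% and 0.124% of genes called). Cldn4 was 10.76 ± 0.10, 10.92 ± 0.20, 10.65 ± 0.39 and 10.58 ± 0.19 at the same 4 times. The pairs in which Cldn3 was called all set 4am against another time, with differences of -2.67 to -2.77 and adjusted p of 0.0120 to 0.0498 (4.28% of genes called for 4am minus 12pm), and without the 3 arrays no pair of times was called for Cldn3 or Cldn4.

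The Cldn3 and Cldn4 genes are next to each other on chromosome 5 in the RefSeq annotation of GRCm38.p6. RefSeq promoter stretches were at hand for 8 of the 10 genes, all but Cldn8 and Cldn23. The 250 bases before the start of each of these neighbours are shown because the pair fell together on the same arrays of high Gapdh ratio. A link to the sequence was not tested. They are given 5′ to 3′ on the gene's strand, with the GC box letters (GGGCGG or its reverse, CCGCCC) and the Snail-type E-box letters (CAGGTG or its reverse, CACCTG) in capitals. The Cldn4 stretch is chr5:134946935-134947184 on the minus strand, with 62.0% G and C. The Cldn3 stretch is chr5:134985964-134986213 on the plus strand, with 60.8%.
Cldn4: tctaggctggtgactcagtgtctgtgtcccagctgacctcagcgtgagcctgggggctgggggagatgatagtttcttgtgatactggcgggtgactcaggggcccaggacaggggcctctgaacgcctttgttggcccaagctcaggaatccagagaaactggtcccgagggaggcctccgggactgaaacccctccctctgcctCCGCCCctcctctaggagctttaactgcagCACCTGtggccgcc
Cldn3: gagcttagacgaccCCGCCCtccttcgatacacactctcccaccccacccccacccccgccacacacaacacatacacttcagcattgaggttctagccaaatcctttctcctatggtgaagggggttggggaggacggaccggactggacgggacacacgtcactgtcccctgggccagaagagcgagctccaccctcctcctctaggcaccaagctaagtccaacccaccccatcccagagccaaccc

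In mouse epithelial cells the repressor Snail is known to bind E-boxes of this form in claudin and occludin promoters. Within 250 bases before to 50 after a start, CAGGTG on either strand was present for Cldn3, Cldn4, Cldn7 and Ocln, 4 of the 8 genes. Some genes have several promoters. Counted by promoter, it was in 5 of the 12 of these 8 genes and in 20.2% of the 32851 promoters searched. The windows of 30 bases around these letters are shown for these 4 genes. Cldn3, Cldn4 and Cldn7 fell on 4am a and 4am b, arrays of high Gapdh ratio, whereas Ocln gave 6221 and 3506 there, against 3726 on 4am c. Cldn15 fell on these arrays without having the letters. A link between the letters and the signal was not tested.
Cldn4, chr5:134946931-134946960, minus strand: ctttaactgcagCACCTGtggccgcccttt
Cldn4, chr5:134946906-134946935, minus strand: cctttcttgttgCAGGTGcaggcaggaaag
Cldn3, chr5:134986233-134986262, plus strand: caaagccacaggCAGGTGcaggggcagtct
Cldn7, chr11:69965312-69965341, plus strand: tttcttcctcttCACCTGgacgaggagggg
Cldn7, chr11:69965352-69965381, plus strand: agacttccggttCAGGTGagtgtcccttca
Ocln, chr13:100552694-100552723, minus strand: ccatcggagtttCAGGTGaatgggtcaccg
Ocln, chr13:100552549-100552578, minus strand: ctaggggctcggCAGGTGggtcccagcgca

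Other letters were searched in the same stretches, on both strands. The GC box GGGCGG was present for 7 of the 8 genes, all but Cldn2. Counted by promoter, it was in 9 of their 12 and in 35.7% of the promoters searched. The clock E-box CACGTG, found in 7.2% of promoters, and the D-box (TTATGTAA or TTACGTAA), found in 1.1%, were in none of the 8. Cldn8 and Cldn23 are not among these 8, so their promoters were not searched for any of the letters. The steroid receptor motif AGAACA was present for Cldn2 alone, and in 6233 of all promoters. A match is a run of letters, not a bound site.

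Cldn2 forms a pore for small cations and water, and with Cldn12 it takes part in vitamin D-dependent calcium uptake in mice. The first Cldn2 probe set, 1417231_at, had time means between 11.38 ± 0.09 (12am) and 12.02 ± 0.39 (4am). Its signal was 3302, 3544 and 3233 at 12pm, and 2493, 2649 and 2829 at 12am, without overlap and with a 12pm minus 12am difference of 0.34 ± 0.22 (adjusted p of 0.718). Cldn12 ranged over 1989 to 3750 (3749.86) on the 14 arrays of low ratio, and its time means from 8am to 12am lay between 11.25 and 11.60. Neither gene differed between the 6 times, with adjusted p of 0.158 for Cldn2 and 0.218 for Cldn12, and the means at 4am were raised in both by the 2 arrays of high ratio.

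The 4pm minus 4am contrast shows how far these arrays set the result. With all arrays 8 of 10 members had an unadjusted p under 0.05, where 19.7% of all genes did, and none of the 10 passed over all genes (0.0466% called). Differences were 1.97 ± 0.67 for Cldn3, 1.55 ± 0.57 for Cldn4, 1.27 ± 0.44 for Cldn7 and 1.21 ± 0.42 for Cldn15. They were -0.88 ± 0.32 for Cldn23, -0.80 ± 0.34 for Ocln and -0.70 ± 0.30 for Tjp1. Without the 3 arrays Cldn3 turned to -0.13, Cldn7 to -0.14 and Cldn12 to 0.36 from a value of -0.49 with all arrays. Cldn4 kept 0.51 and Cldn15 0.14, while Cldn8 (-1.20), Cldn23 (-0.86) and Ocln (-0.98) kept their sign. None had an adjusted p under 0.5 in that fit. Without 4pm c as well Cldn8 was -0.92, Cldn23 was -0.38, Ocln was -0.57 and Tjp1 was 0.0024.

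**Figure D4:**
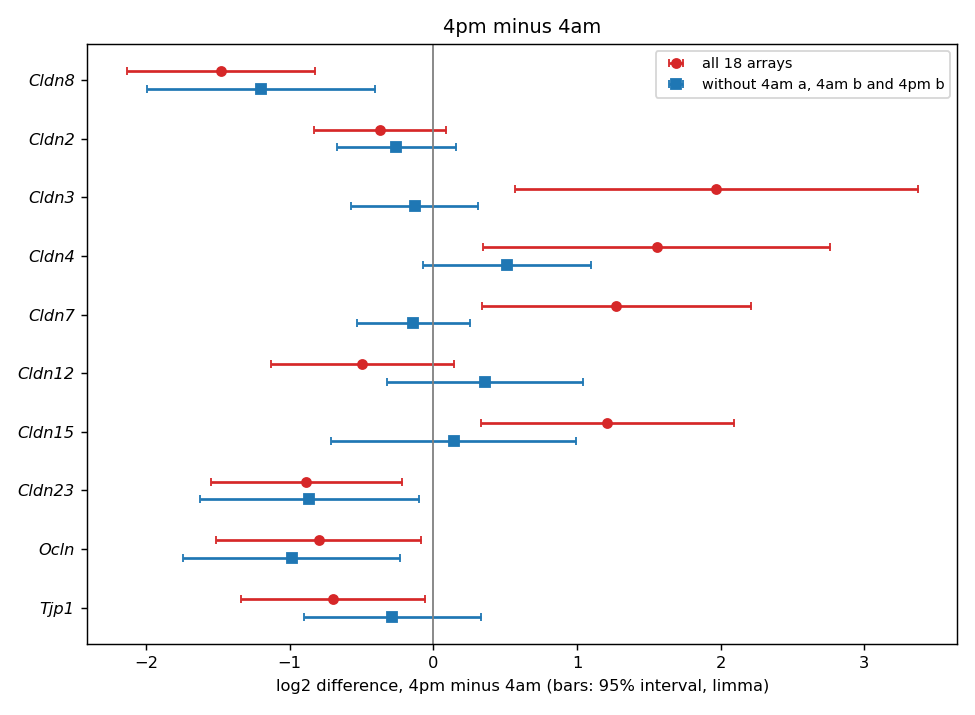
Log2 difference of each transcript, 4pm minus 4am, with 95% intervals from limma, for all 18 arrays (red circles) and without 4pm b, 4am a and 4am b (blue squares). Cldn3 is at 1.97 with all arrays and at -0.13 without the 3, and Cldn8, Cldn23 and Ocln stay below 0 in both.

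The 8 o'clock times were also set against the 12 o'clock times, none of which includes an array of high ratio. This contrast was chosen after the values were seen, so its p-values and separations are a description only. Cldn7 signal was 17584, 14832 and 16199 at 8am and 15255, 14574 and 16371 (16370.5) at 8pm, against 12625, 12636 and 10855 at 12pm and 14544, 13842 and 12541 at 12am. The lowest 8 o'clock array was just above the highest 12 o'clock array. Cldn15 signal was 959, 615 and 741 at 8am and 738, 812 and 821 at 8pm, against 1035, 1410 (1409.75) and 1681 at 12pm and 962, 1600.1 and 989 at 12am. Here too the arrays did not overlap, with the 8 o'clock arrays lower. The share of all genes with such a separation was not counted, here or for the genes named further below. The separations are therefore no result about these genes.

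With all 18 arrays in the fit no member was called in this contrast as deposited, against 14.1% of genes. Cldn23 was called after quantile normalization (adjusted p of 0.0236, 10.9% of genes called) and Ocln after centring on the median (0.0472, 16.9%). Without the 3 arrays, which changes the spread but not the means, Cldn7 (0.30, adjusted p of 0.0160), Cldn15 (-0.68, 0.0136), Cldn23 (-0.66, 0.0083) and Ocln (0.57, 0.0180) were called. That is 4 of 10 against a background of 32.1% of genes. The size depended on the scaling of the arrays. After quantile normalization in the same fit Cldn7 was 0.02 (adjusted p of 0.842) and Ocln 0.41 (0.106), while Cldn15 was -0.71 (0.0171) and Cldn23 -0.76 (0.0051). With each array centred on its median, which moved the median of all genes to 0.25, Cldn15 was -0.38 (0.144) and Cldn23 -0.37 (0.130), while Cldn7 was 0.60 (0.0017) and Ocln 0.86 (9.27e-04). Cldn8 (0.57, 0.0201) and Tjp1 (0.58, 0.0041) were called after centring as well. No member was thus called under all 3 scalings. Without the 3 arrays the share of members called was near that of all genes after each scaling, so the calls are no result about the members. Cldn3 was 0.05 as deposited, -0.16 after quantile normalization (called, at 0.0353) and 0.34 after centring.

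Marker sums of endothelium and squamous epithelium differed in this contrast without overlap, and those of the surface epithelium with some overlap. The sums of smooth muscle, crypt base, immune cell, goblet cell and adipose markers overlapped between the 8 o'clock and 12 o'clock arrays. Smooth muscle gave 47880 to 77706 at 8am and 47501 to 62435 at 8pm, against 49601 to 68171 at 12pm and 52420 to 83082 at 12am. The summed signal of 8 endothelial markers, all on the array, was 1565 to 2385 at 8am and 2010.5 to 2328 at 8pm, against 2567 to 3269 at 12pm and 2640 (2639.68) to 3712 at 12am. The 5 squamous markers tested summed to 773 to 1102 at 8am and 992 to 1091 at 8pm, against 1506 to 2240 (2239.58) at 12pm and 1371 to 1904 at 12am. The 14 surface epithelium markers summed to 189746 to 222304 at 8am and 187248 to 221845 at 8pm, against 144464 to 168457 at 12pm and 159418 to 196754 at 12am. None of the markers summed was at 0 on any array, and their part in the result was not tested.

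**Figure D5:**
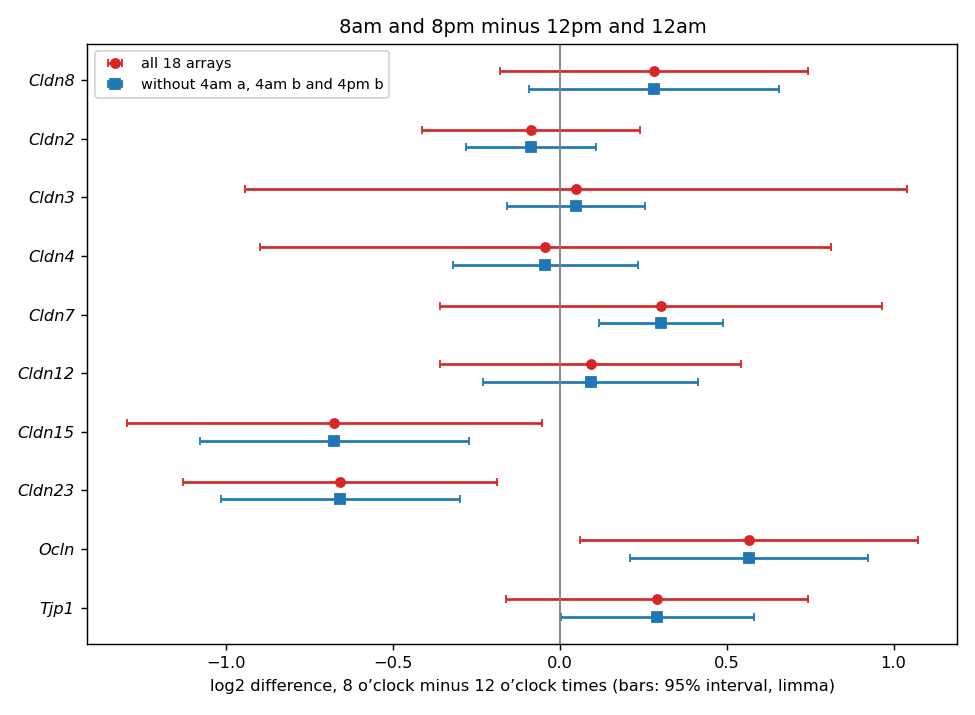
Log2 difference of each transcript, mean of 8am and 8pm minus mean of 12pm and 12am, with 95% intervals from limma, for a fit to all 18 arrays (red circles) and without 4pm b, 4am a and 4am b (blue squares). Cldn15 and Cldn23 lie below 0 and Ocln above 0 in both fits, and the interval of Cldn7 leaves out 0 in the second fit alone.

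Other junction genes were read from lists chosen with earlier results of these data known. Of all genes tested 17% passed the test of any difference between times with all arrays. A list count near that share is no result about the list. Of 16 other claudins 12 are on the array and 6 passed the filter on mean signal. Cldn19, Cldn10 and Cldn13 passed it only through the times when they were high, so their tests add nothing to their values. Cldn19, known for magnesium handling in kidney, gave 56.3, 28.0 and 30.0 at 8am and 46.8, 63.9 and 30.7 at 8pm, against 161, 178 and 246 at 12pm and 336, 338 and 301 at 12am. The 8 o'clock arrays were lower without overlap, and all of them lay under the filter signal of 121. Of the other 3, Cldn14 (adjusted p of 0.0307) and Cldn22 (0.0378) passed over all genes and Cldn5 did not (0.111), and without the 3 arrays the values of Cldn14 and Cldn22 were 0.0035 and 0.0411.

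Of 25 scaffolds and membrane partners tested, 2 differed between times, cingulin (Cgn, adjusted p of 0.0371) and Prkcz (0.0446), an atypical kinase of the polarity complex. Prkcz gave 51.5 on 4am a and 96.9 on 4am b, against 866 on 4am c, and had an adjusted p of 0.848 without the 3 arrays. Cgn kept its call, at 0.0046, and F11r, Magi3, Patj and Ybx3 passed in that fit too. Of 10 adherens junction genes none passed, and the lowest adjusted p were those of Afdn (0.0530) and Ctnnb1 (0.0610), of which Ctnnb1 passed without the 3 arrays (0.0243).

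Of 20 regulators of claudins and junctions 4 passed, near the 17% of all genes that did. They were Wnk1 (adjusted p of 0.0193), Wnk4 (0.0198), Prss8 (0.0356) and Epcam (0.0418). Wnk1 (0.0524), Wnk4 (0.0651) and Prss8 (0.237) did not pass without the 3 arrays, whereas Lnx1 (0.0381), Spint2 (0.0164) and Nr3c2 (0.0098) did. Wnk4, a kinase that acts on claudins and sodium transport in the distal nephron, was 901, 920.1 and 1136 at 4pm, against 243, 183 and 452 at 4am. Its 4pm minus 4am difference of 1.79 was called with all arrays (adjusted p of 0.0361, 0.0466% of genes called), and the arrays did not overlap. The values of 243 and 183 are from 4am a and 4am b, of high Gapdh ratio. That of 4am c, 452, lies among the 8am values of 549, 303 and 620. No value of this contrast without the arrays of high ratio is given. Epcam, which binds and stabilises Cldn7 in intestine, was 18815, 18646 and 21993 at 8am and 19152, 17393 and 17226 at 8pm, against 14871, 15332 and 12630.0 at 12pm and 15723, 15551 and 12866 at 12am. Its 8 o'clock arrays were higher without overlap, the same side as Cldn7 in the deposited values. Other scalings were not tried for Epcam in this contrast, and the Cldn7 difference was 0.02 after quantile normalization. Of 8 genes of aldosterone-responsive sodium uptake none passed with all arrays, Atp1b1 coming nearest (0.0608) and then Nr3c2 (0.0669), and Atp1b1, Nr3c2 and Nedd4l did pass without the 3.

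For each other member the gene with the highest correlation over the 18 arrays was Immp1l for Cldn2 (r of 0.97), Glmp for Cldn3 (0.99), Tmub1 for Cldn4 (0.98) and Tmem63a for Cldn7 (0.99). It was Cntd1 for Cldn12 (0.94), 2310061I04Rik for Cldn15 (0.93), Dcaf7 for Cldn23 (0.93), Arhgap5 for Ocln (0.94) and Nt5dc1 for Tjp1 (0.97). Over the 14 arrays of low ratio these were 0.56 for Cldn4 and Tmub1, 0.80 for Cldn3 and Glmp, and 0.94 for Cldn23 and Dcaf7. All of them share arrays and collection times.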

How the data were processed

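Gene expression was measured on 18 arrays of mouse distal colon, 3 at each of 6 times. The authors deposited signal intensity values per probe set in linear scale, made with GCOS per the submitters' processing notes. The arrays' 2% trimmed means were all about 500.0, so each array had been scaled to a common mean, and the number of arrays limits the precision. Tables held 0 columns that were not used. Values were taken as log2(signal + 16), and of 45037 probe sets that are no controls those with a mean log2 signal under the 40th percentile (7.10, a signal of 121) were left out, which kept 27022. The platform table gave 1 symbol to 34945 probe sets, several to 932 and none to 9160. Each gene was read from its brightest probe set by mean, which gave 12870 genes.

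Linear models were fitted with limma 3.58.1 in R 4.3.3 with a mean trend in the moderation, as a 24 h cosine, as 6 group means (F test) and as contrasts, and p-values were adjusted by Benjamini-Hochberg over all genes (threshold 0.05). The code was tested on simulated data. Members, lists and tests were chosen with earlier results of these data known. The 10 members were named throughout, with the 5 genes most correlated with Cldn8, the 1 most correlated with each other member, and of each list 2 to 4 genes of lowest p and any that passed. Pairs of times, differences between contrasts, the 8 o'clock contrast and the fit without 4 arrays were added after the data were seen. Promoter sequences are RefSeq's, build GRCm38.p6. Replicate letters did not pair arrays (mean correlation of deviations -0.01 for the same letter and 0.01 for different letters). Alternatives were other constants, scalings, filters, probe set rules, moderation, array weights, a replicate block, a 12 h harmonic and leaving out arrays.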

Additional observations from a re-analysis of the deposited data

Results flagged for a closer look

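The 4pm minus 4am difference of Cldn8 went against its 8am minus 8pm difference. It was -1.48 for 4pm minus 4am and 1.06 for 8am minus 8pm, and the difference of the 2 contrasts was -2.53 ± 0.44 (SE) with an adjusted p of 0.0270 in limma. Every array of 8am lay above every array of 8pm, and every array of 4pm below every array of 4am.

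Against 12pm minus 12am (0.81) the Cldn8 difference of contrasts was -2.29 ± 0.44, with an adjusted p of 0.0966, so it did not pass over all genes. The arrays of both pairs were separate and in opposite directions.

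Cldn23 showed the same opposition of 4pm minus 4am (-0.88) and 12pm minus 12am (0.93). Their difference was -1.81 ± 0.45 with an adjusted p of 0.221, which did not pass. 2 of the 4am arrays and 2 of the 4pm arrays have Gapdh ratios of 2.33 to 36.0. Without 4pm b, 4am a and 4am b, 4pm minus 4am was -1.20 for Cldn8 and -0.86 for Cldn23, and the difference of contrasts was not tested in that fit.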

How the results depend on the processing

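Cldn8 and Cldn23 differed between the 6 times under all 31 alternatives run, with adjusted p up to 0.0241 for Cldn8 and up to 0.0409 for Cldn23. Cldn3 lost that call in 17 of 31 and Cldn7 in 23 of 31. The count of members that differed was 4, and it was 2 after quantile normalization, 2 with the mean of a gene's probe sets, 10 with array quality weights, and 2 to 10 when 1 array was left out, with 10 without 4am c. For probe sets tested alone the count was 4, and it was 2 after quantile normalization, 13 with array weights, and 2 to 14 when 1 array was left out (14 without 4am c). Array weights also gave 1 rhythmic member (Cldn8, adjusted p of 0.0106, among 29 genes called) and 1 rhythmic probe set, 1 member for 8am minus 8pm, 2 for 12pm minus 12am, 7 for 4pm minus 4am and 5 for light minus dark, where the unweighted fit called none. Without the 4 arrays 12pm minus 12am called 1 member, Cldn23. Leaving out 1 array gave 0 to 8 members for 4pm minus 4am (8 without 4am c) and 0 to 4 for light minus dark (4 without 4am c). Without 4am c the 4am group holds only 4am a and 4am b, both of high Gapdh ratio. The share of all genes called is not given beside most of these counts, so a rise in a count is no result about the members. The 4pm minus 4am difference changed sign without 3 and without 4 arrays for Cldn3 (-0.13 and -0.20), Cldn7 (-0.14 and -0.27) and Cldn12 (0.36 and 0.0322), and without 4 for Tjp1 (0.0024); these fits hold fewer arrays, and the causes of the other changes were not tested. The 8am minus 8pm difference of Ocln ran from -0.0437 (without 8pm b, and it was also below 0 without 8am b) to 0.15 when 1 array was left out. With the replicate block the members that differed were 3, since Cldn7 missed at an adjusted p of 0.0533, and no other call on a member changed; the letters do not pair the arrays. All 16 probe sets passed the filter on mean signal, but single arrays lay under its signal of 121 for Cldn3 (1426332_a_at, at 12.3, 15.03 and 44.8), Cldn4 (113 on 4am a) and Cldn2 (1417232_at, 119 on 4am b), where low values are imprecise. At 4pm and 4am the arrays with high Gapdh ratio limit what can be read.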
